A study of Bos taurus with 30 samples.

Results

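NKG2A and PPP1R3B are the names of a pair of cattle genes that earlier work associated with fertility in heifers and that the study followed in stored blood. Its supplementary code marks them by the Ensembl identifiers ENSBTAG00000010606 and ENSBTAG00000052658. These 2 genes were taken out of the 27607 genes of the count table by those identifiers. The tables and code used here do not pair the identifiers with the names, so each gene is called by its identifier throughout. The study picked both because they changed between 1 h and 24 h of storage in these same animals, so their values in that comparison are given as a description.

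NKG2A is an inhibitory lectin-like receptor of natural killer cells and of some cytotoxic T cells. It reaches the cell surface paired with CD94 and, on binding a non-classical MHC class I molecule, recruits phosphatases that dampen killing. PPP1R3B is a glycogen-targeting subunit of protein phosphatase 1, which brings the phosphatase to glycogen particles, where glycogen synthase is dephosphorylated and thereby activated. It is best known from liver.

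The cells studied, peripheral white blood cells (PWBCs), were what remained of the buffy coat once red cells had been lysed. They hold neutrophils, lymphocytes, monocytes and eosinophils in shares that were not measured. Blood came from 5 young, estrus-synchronized crossbred beef heifers (Angus and Simmental) sampled when they were in estrus, with K2 EDTA as anticoagulant. Each heifer gave 1 coccygeal (tail) vein tube processed at 1 h and 5 jugular (neck) vein tubes that were randomly assigned to processing at 1, 3, 6, 8 or 24 h, and all tubes were kept cold until then. The 30 libraries thus comprised 5 coccygeal libraries at 1 h, 5 jugular libraries at 1 h, 15 jugular libraries at 3, 6 or 8 h and 5 jugular libraries at 24 h. The 15 libraries of 3, 6 and 8 h could not be tied to a single time or heifer, so they were kept as 1 group, called 3-8 h, to which every heifer contributed 3 libraries. Libraries of the other groups carried the subject letters A to E. All groups shared the same animals.

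Levels are given as CPM, the count of a gene scaled to a library total of 1000000. Libraries held between 12412619 and 19492274 counts, so that 3 counts corresponded to 0.154 to 0.242 CPM. Of the genes counted, 14018 had a CPM above 1 in 5 or more libraries and were tested. Both members exceeded 1 CPM in all 30 libraries. Because CPM does not account for transcript length, the levels of the 2 genes were not compared with each other.

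ENSBTAG00000010606 was detected at moderate levels in every library, with 360 counts in the lowest and 1996 in the highest. In jugular blood at 1 h its level was 79.0, 48.6, 31.8, 39.6 and 42.2 CPM in subjects A to E, with a mean of 48.2 ± 18.2 (SD, n = 5). In coccygeal blood at 1 h it was 58.8, 31.9, 51.9, 39.3 and 38.6 CPM in the same order, with a mean of 44.1 ± 10.9 (SD, n = 5). Subject A had the highest level in both veins, and the coccygeal range, from 31.9 to 58.8 CPM, lay inside the jugular range, from 31.8 to 79.0 CPM.

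After 24 h of storage the level of ENSBTAG00000010606 was 28.5, 28.6, 23.7, 24.5 and 28.4 CPM in subjects A to E. The mean was 26.8 ± 2.42 CPM (SD, n = 5), and the highest library at 24 h lay below the lowest jugular library at 1 h. Because the gene was picked on these 2 times, the gap is a description, and the share of all genes with such a gap is not given here. The highest level was 2.48 times the lowest at 1 h and 1.21 times the lowest at 24 h, and the coefficient of variation was 37.7% at 1 h and 9.06% at 24 h. Over all genes tested, the median coefficient of variation was 15.5% at 1 h and 14.1% at 24 h. At 1 h, 86.9% of genes had a smaller coefficient than ENSBTAG00000010606, against 27.0% of genes at 24 h. The 1 h values rest on the jugular library of subject A. Without it, an alternative chosen after seeing the data, the coefficient at 1 h was 17.1%, beside a median of 15.3% over all genes in the same 4 libraries, and 55.7% of genes had a smaller one. At 24 h without subject A it was 9.70%, above that of 31.8% of genes. Whether the spreads differed was not tested.

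Between those times, the 15 libraries of 3-8 h ranged from 25.2 to 121.1 CPM with a median of 33.8 and a mean of 41.0 ± 24.1 (SD, n = 15). One library at 121.1 CPM stood apart from the others, of which the next highest reached 65.5 CPM. Without it the mean was 35.3 ± 9.76 (SD, n = 14). Against the jugular range at 1 h, 5 of the 15 libraries were lower, 9 were inside it and 1 was higher. Against the range at 24 h, 13 of the 15 were higher and 2 were inside it. By median level the order was jugular 1 h (42.2 CPM), coccygeal 1 h (39.3), jugular 3-8 h (33.8) and jugular 24 h (28.4), and each neighbouring pair in this order had overlapping ranges.

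ENSBTAG00000052658 was a gene of low level whose differences between heifers exceeded those between times, with 29 to 515 counts per library. In jugular blood at 1 h it was at 2.82, 6.17, 21.6, 2.79 and 3.79 CPM in subjects A to E, with a mean of 7.43 ± 8.03 (SD, n = 5). In coccygeal blood at 1 h the values were 1.68, 5.65, 21.9, 2.74 and 3.07 CPM, with a mean of 7.00 ± 8.44 (SD, n = 5). After 24 h they were 3.41, 7.69, 33.0, 3.34 and 8.91 CPM, with a mean of 11.3 ± 12.4 (SD, n = 5). Subject C had the highest level in all 3 groups. The highest level was 7.75 times the lowest in jugular blood at 1 h, 13.03 times in coccygeal blood and 9.87 times at 24 h. Without subject C these ratios were 2.22, 3.37 and 2.67.

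In the 3-8 h group ENSBTAG00000052658 ranged from 2.36 to 26.4 CPM with a median of 4.78 and a mean of 8.49 ± 8.69 (SD, n = 15). The values fell into a group of 3 libraries between 23.0 and 26.4 CPM and a group of 12 libraries between 2.36 and 9.07 CPM, with none between. Whether the 3 high libraries came from subject C was not determined, because no library of this group was tied to a heifer. The order of the medians was jugular 24 h (7.69 CPM), jugular 3-8 h (4.78), jugular 1 h (3.79) and coccygeal 1 h (3.07), and the ranges of all 4 groups overlapped. The coefficient of variation was above 100% in every group, from 102.3% at 3-8 h to 120.5% in coccygeal blood. In each group it exceeded that of at least 98.8% of all genes tested. These values rest on subject C in the groups with subject letters. Without that subject, an alternative chosen after seeing the data, the coefficient was 51.3% in coccygeal blood, 40.8% in jugular blood at 1 h and 49.5% at 24 h. It then exceeded that of 92.6%, 89.2% and 93.9% of genes in the same libraries.

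**Figure D1:**
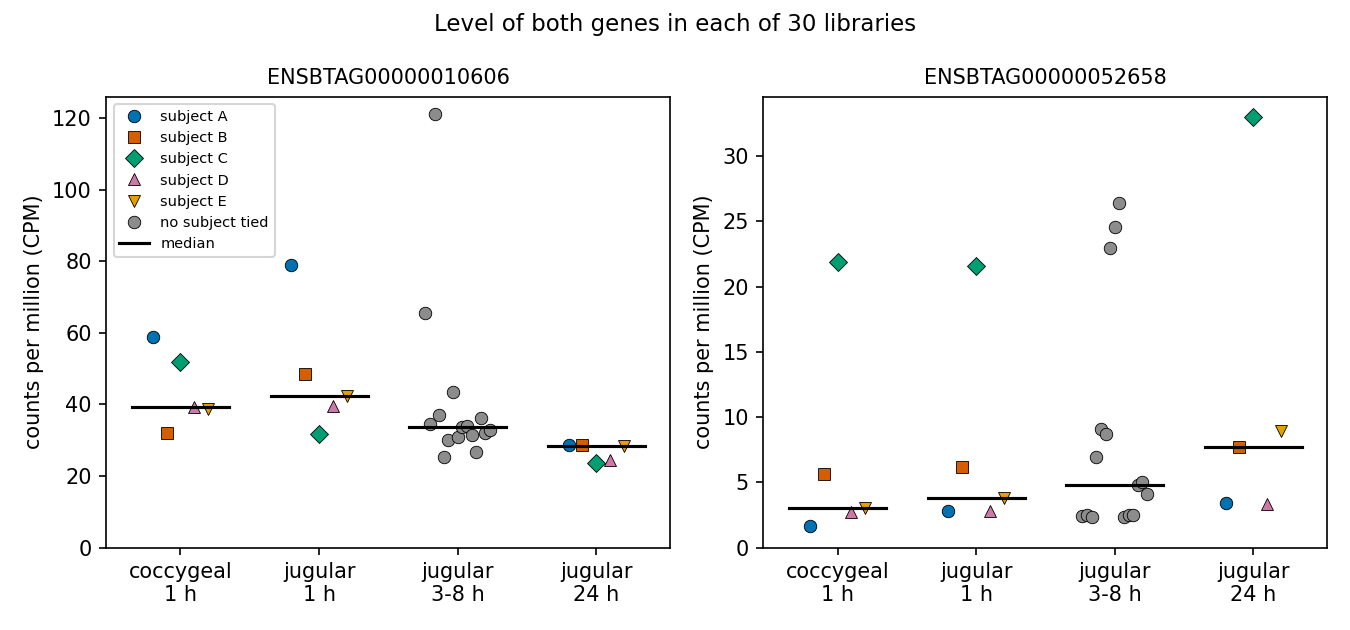
Level of ENSBTAG00000010606 (left) and ENSBTAG00000052658 (right) in CPM on a linear axis, with 1 point per library, symbols for subjects A to E, grey circles for the 15 libraries not tied to a subject, and a line at each group's median. On the left the 5 libraries at 24 h sit between 23.7 and 28.6 CPM, below all 5 jugular libraries at 1 h. On the right subject C lies above the other subjects in each group whose libraries carry subject letters.

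The spread was split between heifers and groups for the 15 libraries with a subject letter, on the scale of log2(CPM + 1). For ENSBTAG00000052658 the subject took 91.1% of the sum of squares, the vein and storage group 6.20% and the remainder 2.66%. For ENSBTAG00000010606 the subject took 22.6%, the group 54.2% and the remainder 23.3%. Over all genes tested the medians were 52.6%, 10.8% and 29.1%. The subject's share of ENSBTAG00000052658 was larger than that of 97.1% of genes. The 3 shares of a gene add up to the whole, and the group's share holds the comparison by which both genes were picked, so all of these shares are a description only.

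**Figure D2:**
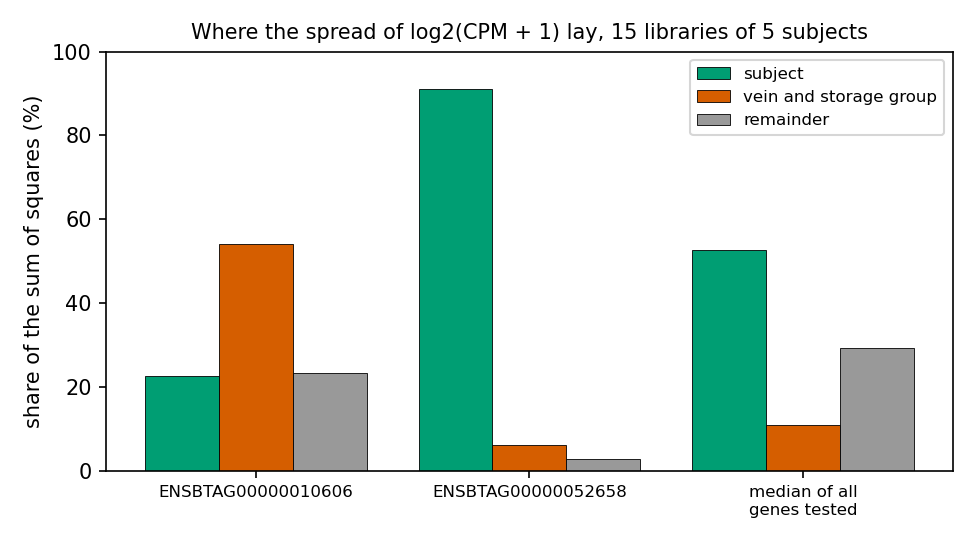
Share of the sum of squares of log2(CPM + 1), in percent, that lay between subjects, between the 3 vein and storage groups, and in the remainder, for 15 libraries. Bars show each gene and the median over all genes tested, whose bars do not add up to 100% because each is a median of its own, and the subject's bar reaches 91.1% for ENSBTAG00000052658.

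The first comparison asked what 24 h in the cold did to both transcripts. ENSBTAG00000010606 was lower at 24 h than at 1 h in 5 of 5 heifers, and ENSBTAG00000052658 was higher in 5 of 5. The share of all genes with the same direction in every heifer is not given here. The levels at 1 h were 2.77, 1.70, 1.34, 1.61 and 1.49 times those at 24 h for ENSBTAG00000010606 in subjects A to E. The difference within subject averaged -0.76 ± 0.40 in log2(CPM + 1) (SD, n = 5), and subject A, the highest at 1 h, had the largest drop. For ENSBTAG00000052658 the levels at 24 h were 1.21, 1.25, 1.53, 1.2 and 2.35 times those at 1 h. Its difference within subject averaged 0.46 ± 0.36 (SD, n = 5), and subject E, not the high subject C, had the largest rise.

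A gene was called when its Benjamini-Hochberg adjusted p (FDR) was under 0.05 in each of 2 tools, edgeR (quasi-likelihood F-test) and DESeq2 (Wald test), and its log2 fold change exceeded 0.5 in either direction. With the subject as a block, 2.58% of all genes tested were called at 24 h against 1 h, 1.45% as higher and 1.13% as lower, and both members were among them, as the way they were picked implies. DESeq2 gave no adjusted p to 1631 of the 14018 genes here, so those genes could not be called. The log2 fold change of ENSBTAG00000010606 was -0.79 (SE 0.13), with an edgeR FDR of 0.012 and a DESeq2 adjusted p of 5.6e-07. The fold change of ENSBTAG00000052658 was 0.55 on the log2 scale (SE 0.19), with an edgeR FDR of 0.0369 and a DESeq2 adjusted p of 0.0369. Since these tests reuse the values by which both genes were chosen, they are not independent evidence of the change.

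How firmly the calls stood differed between the members. When each heifer was left out in turn, ENSBTAG00000010606 stayed called in 5 of 5 fits, with log2 fold changes from -0.88 to -0.62 and edgeR FDRs from 0.00763 to 0.0474. ENSBTAG00000052658 was called in 0 of those 5 fits: its edgeR FDR ranged from 0.0544 without subject D to 0.131 without subject C, and its log2 fold change from 0.40 without subject E to 0.62 without subject B. Without the block, neither member met the rule in both tools. For ENSBTAG00000010606 the log2 fold change was then -0.85, the edgeR FDR 0.108 and the DESeq2 adjusted p 0.00822, so that it passed in DESeq2 only. For ENSBTAG00000052658 these values were 0.60, 0.785 and 0.803.

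**Figure D3:**
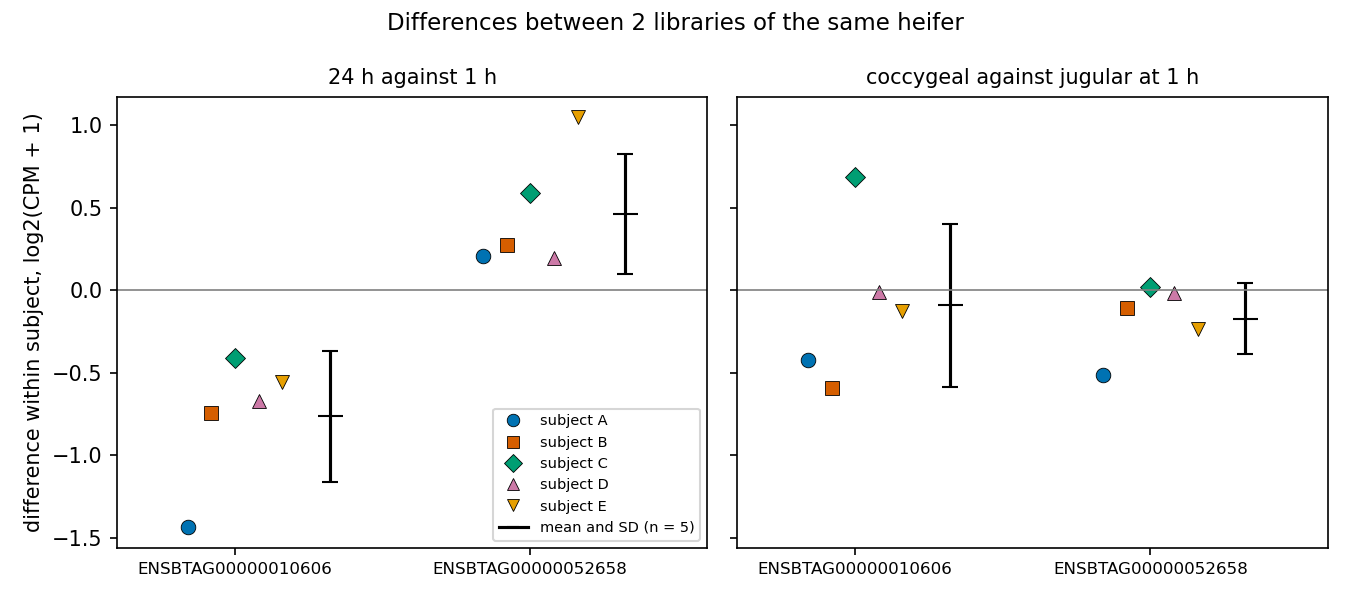
Difference within each of 5 heifers in log2(CPM + 1), with 1 symbol per subject and the mean and SD beside them, for 24 h against 1 h in jugular blood (left) and for coccygeal against jugular blood at 1 h (right). On the left all 5 points of ENSBTAG00000010606 lie below 0 and all 5 of ENSBTAG00000052658 above it, and on the right both genes have points on either side of 0.

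The vein comparison asked whether tail and neck blood of the same heifer at 1 h gave different levels. The genes were not picked on it, but it shares the 5 jugular libraries at 1 h with the comparison on which they were. ENSBTAG00000010606 was higher in coccygeal blood in 1 of 5 heifers, subject C, in which it was at 1.63 times the jugular level. In the other heifers the jugular level was 1.01 to 1.52 times the coccygeal one. The difference within subject was -0.09 ± 0.49 in log2(CPM + 1) (SD, n = 5), a spread between heifers larger than the mean. ENSBTAG00000052658 was also higher in coccygeal blood in 1 of 5 heifers, again subject C, by a factor of 1.01. Its difference within subject was -0.17 ± 0.21 (SD, n = 5), and subject A had the largest gap.

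Neither member passed the test between veins, and 0% of the 14018 genes were called by the rule. By edgeR's FDR alone 0 genes passed and by DESeq2's adjusted p alone 0 genes passed, while 278 genes had an unadjusted p under 0.05 in edgeR. The log2 fold change of ENSBTAG00000010606 (coccygeal over jugular) was -0.09 in DESeq2, with a 95% interval from -0.56 to 0.38. For ENSBTAG00000052658 it was -0.19, with an interval from -0.58 to 0.20, and in edgeR it went from -0.19 to -0.09 without subject A. Both intervals include a difference of the size of the call rule's threshold. The fitted direction for ENSBTAG00000010606 turned to 0.03 in edgeR when subject B was left out.

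The third comparison set the 15 libraries of 3-8 h against the 5 jugular libraries at 1 h, which it too shares with the first. No gene was called (0% of those tested, 0 genes by either tool's FDR, 174 genes with an unadjusted p under 0.05 in edgeR). ENSBTAG00000010606 had a log2 fold change of -0.22 in DESeq2 (95% interval -0.83 to 0.39), and ENSBTAG00000052658 of 0.19 (-1.07 to 1.45). Heifers could not be blocked here, so their differences stayed in the error, and these fits treated 3 libraries of 1 heifer as independent. The interval of ENSBTAG00000052658 therefore spans changes in either direction larger than the one seen at 24 h.

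Single libraries decided the direction of both genes between 1 h and 3-8 h. In edgeR the log2 fold change of ENSBTAG00000010606 was -0.24, and it was 0.01 without subject A at 1 h. Without the 3-8 h library at 121.1 CPM, an alternative chosen after seeing the data, it was -0.45. For ENSBTAG00000052658 it was 0.19, and it became -0.02 without subject A or without subject D at 1 h and 1.12 without subject C at 1 h.

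The last comparison set 24 h against 3-8 h, sharing the 24 h libraries with the first. Here 0.2% of the genes tested were called, 0.143% as higher and 0.0571% as lower, and neither member was among them. The log2 fold change of ENSBTAG00000010606 was -0.64 in DESeq2 (95% interval -1.22 to -0.07, not adjusted for the number of genes), with an adjusted p of 0.362 in DESeq2 and an FDR of 0.4997 in edgeR. For ENSBTAG00000052658 it was 0.41 (-0.86 to 1.69), with adjusted p-values of 0.893 in DESeq2 and 0.892 in edgeR. Without the library at 121.1 CPM the edgeR log2 fold change of ENSBTAG00000010606 went from -0.61 to -0.40. That of ENSBTAG00000052658 went from 0.41 to -0.54 without subject C at 24 h.

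**Figure D4:**
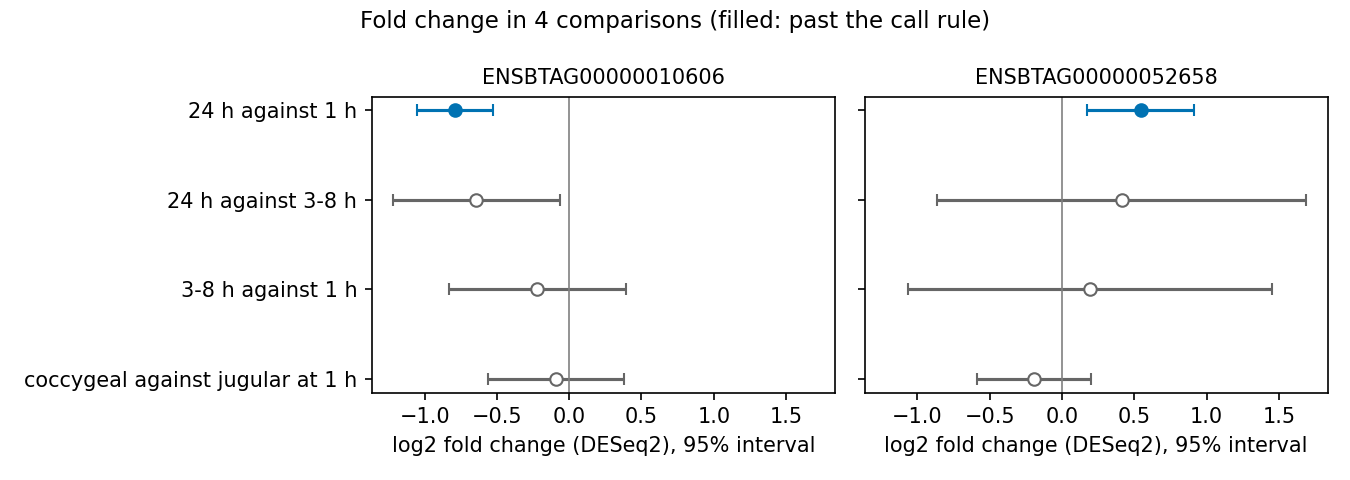
Log2 fold change of each member in 4 comparisons as fitted by DESeq2, with 95% intervals that are not adjusted for the number of genes, and filled points where the call rule was met. Only 24 h against 1 h, fitted within heifers, has filled points, and the intervals of ENSBTAG00000052658 are widest in the 2 comparisons with the 3-8 h libraries, where heifers could not be blocked.

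To place the members beside genes of the same biology, natural killer and cytotoxic genes and genes of glycogen metabolism and protein phosphatase 1 were listed by symbol. Identifiers were taken from a table of all genes in identifier order, which covered only part of each list: 7 of 40 natural killer and cytotoxic genes and 4 of 32 glycogen genes were matched and tested. Of these, 0 of 7 and 0 of 4 were called at 24 h against 1 h, beside 2.58% of all genes. CD94, among the 7, had no adjusted p in DESeq2 and so could not be called, and its edgeR FDR was 0.835. The median log2 fold change was -0.14 over the 7 and 0.01 over the 4, beside 0.01 over all genes tested. These counts leave out 3 further natural killer and cytotoxic genes, CRTAM, EOMES and GZMB, whose identifiers are named only in tables of genes that the study itself called in these samples, so that their direction is not independent evidence. CRTAM, a surface receptor of activated cytotoxic lymphocytes, averaged 13.5 ± 3.25 CPM in the 1 h libraries, against 7.51 ± 1.68 after 24 h (SD, n = 5), and it fell by 0.85 on the log2 scale (SE 0.17 by DESeq2, edgeR FDR 0.00547). EOMES, a transcription factor of natural killer and cytotoxic T cells, was at 16.5 ± 5.61 and 10.5 ± 3.80 CPM, and it fell by 0.65 (SE 0.15, FDR 0.00763). Both were lower at 24 h in 5 of 5 heifers. GZMB, the granule protease granzyme B, was at 15.7 ± 12.7 and 7.03 ± 9.71 CPM and lower in 4 of 5 heifers, with a log2 fold change of -1.47 (SE 0.58) that did not pass the test (FDR 0.180). The 0 of 7 therefore does not describe cytotoxic genes as a whole.

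The gene annotated as CD94 antigen, the partner through which NKG2A reaches the surface, was barely detected. Its level in jugular blood was 1.195 ± 0.54 CPM (SD, n = 5) at 1 h and, after 24 h, 1.30 ± 0.72 CPM (SD, n = 5), and its log2 fold change at 24 h was 0.10 (edgeR FDR 0.835). PRF1, the pore-forming perforin of cytotoxic granules, was lower at 24 h in 5 of 5 heifers, with 112.3 ± 22.9 CPM (SD, n = 5) at 1 h against 91.2 ± 24.1 CPM (SD, n = 5). It passed the FDR in edgeR (0.0199) and in DESeq2 (adjusted p = 0.00491), but its log2 fold change of -0.32 was smaller than the rule's threshold. By edgeR's FDR alone 11.9% of all genes passed, 6.03% as higher and 5.87% as lower. The granule protease GZMM had a log2 fold change of -0.24 (edgeR FDR 0.367), the activating receptor CD244 of -0.14 (0.348), and the Fc receptor FCGR3A of -0.02 (0.878). For NKTR, a cyclophilin-related protein of natural killer cells, it was 0.10 (0.247), and for PTPN11, a phosphatase that inhibitory receptors can recruit, it was -0.18 (0.0958).

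Of the 4 glycogen genes, 0 passed the test at 24 h against 1 h. GYG1, the primer on which glycogen is built, had a log2 fold change of -0.07 (edgeR FDR 0.556). UGP2, which makes the glucose donor UDP-glucose, was at -0.10 (0.479). The muscle form of glycogen phosphorylase, PYGM, was at 0.24 (0.368), and PHKG2, a catalytic subunit of phosphorylase kinase, was at 0.10 (0.438). In the vein comparison, where 0% of genes were called, and at 3-8 h against 1 h, 0 of the 11 listed genes passed. At 24 h against 3-8 h 0 of the 11 passed as well, beside 0.2% of all genes by the rule and 0.407% by edgeR's FDR alone, shares at which 11 genes are too few to differ from the background.

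Markers of the main blood cell types were checked in the same way, with 4 of 31 listed markers matched and tested. CD79A, a subunit of the B cell receptor complex, was at 504.2 ± 51.6 CPM at 1 h (SD, n = 5), CD4 of helper T cells at 257.1 ± 30.8, CD68 of monocytes and macrophages at 40.8 ± 16.2, and IL5RA of eosinophils at 12.2 ± 4.98. White blood cell markers were thus present, while markers of neutrophils and red cells were not matched to identifiers. From 1 h to 24 h CD4 fell, with a log2 fold change of -0.62 (edgeR FDR 0.0148), and IL5RA fell, with -0.56 (0.0231), each in 5 of 5 heifers. CD79A was at 0.18 (0.185) and CD68 at -0.09 (0.706). For 3 more listed markers the identifier is named only in the tables of genes that the study called, and they were kept out of the 4. The T cell marker CD8A fell by 0.60 (FDR 0.00492) and the monocyte marker CD14 fell by 0.62 (0.0123), while PPBP of platelets rose by 0.59 (0.00268), each in 5 of 5 heifers. In bulk RNA, fewer cells of a type and less RNA per cell cannot be told apart, and the part of these marker changes in the members' values was not tested.

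CD68 and ENSBTAG00000010606 were high in the same few libraries. Pearson's r between them in log2(CPM + 1) was 0.82 over the 30 libraries, which come from only 5 heifers, and Spearman's rho was 0.50. The library with 121.1 CPM of ENSBTAG00000010606 also had the highest CD68, 125.3 CPM, and the jugular library of subject A at 1 h had 79.0 and 67.9 CPM. Without the 2 libraries farthest from the median of ENSBTAG00000010606 r was 0.58, and over the 25 libraries at or below 50 CPM, a limit set after the levels were seen, it was 0.16. Of the markers that fell at 24 h, r with ENSBTAG00000010606 was computed for CD4 and IL5RA, not for CD8A and CD14. For CD4 and IL5RA r was higher over those 25 libraries than over all 30. It was 0.64 against 0.41 for IL5RA and 0.51 against 0.22 for CD4, with rho over all 30 libraries of 0.49 and 0.46, and for CD79A it was -0.16 against -0.24. CD68 ranged from 28.5 to 67.9 CPM at 1 h and from 32.9 to 41.1 CPM at 24 h, so that its groups overlapped where those of ENSBTAG00000010606 did not. CD68 was the only marker of its cell type matched by the table of all genes, from a list of 3. The monocyte marker CD14 behaved differently from CD68 and fell in 5 of 5 heifers, with a log2 fold change of -0.62 (edgeR FDR 0.0123). Its identifier came from the tables of genes that the study called, so its direction is not independent evidence. The overlap of the CD68 groups therefore does not describe monocyte markers as a whole.

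**Figure D5:**
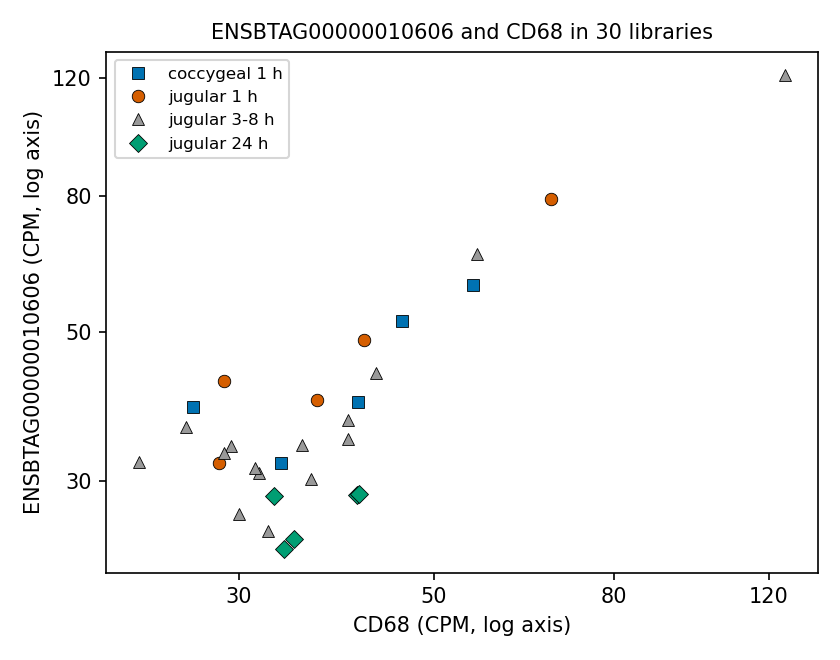
Level of ENSBTAG00000010606 against that of CD68 in CPM on log axes, 1 point per library for 30 libraries of 5 heifers, with symbols for the 4 groups. The point at the upper right is the 3-8 h library at 121.1 and 125.3 CPM, and the 5 libraries at 24 h lie low on the vertical axis while their CD68, from 32.9 to 41.1 CPM, is within the range of the other groups.

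The genes whose levels followed each member most closely were sought over the 30 libraries among the 1747 tested genes with a name, 12.5% of those tested. These are descriptions across libraries that share heifers, so no p is given. Nearest to ENSBTAG00000010606 were ACVR1B, an activin receptor (r = 0.97), FOSL2, an AP-1 transcription factor subunit (0.97), TIAM1, an activator of the GTPase RAC1 (0.95), SSH2, a cofilin phosphatase (0.94), and RAB3D, a GTPase of secretory vesicles (0.93). ACVR1B and FOSL2 were also the nearest of all genes, named or not. Over the 25 libraries at or below 50 CPM of ENSBTAG00000010606 these r were lower, at 0.86 for ACVR1B, 0.87 for FOSL2, 0.80 for TIAM1, 0.74 for SSH2 and 0.66 for RAB3D. Of the 5, all but RAB3D owed their name to supplementary tables of genes that the study had called in these samples, so genes that changed at 24 h had a better chance of being named here.

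ACVR1B had a mean of 21.5 ± 9.47 CPM (SD, n = 5) at 1 h, against 11.8 ± 1.42 CPM (SD, n = 5) after 24 h, and FOSL2 of 70.8 ± 19.4 against 41.7 ± 3.67 CPM. Both had a smaller spread between heifers at 24 h, as ENSBTAG00000010606 had. They were picked for following it over these same libraries, so this likeness is a description only. For RAB3D the means were 53.6 ± 32.9 and 32.4 ± 1.21 CPM. Most opposed to ENSBTAG00000010606 were RBBP7, a histone-binding protein (r = -0.86), COL11A2, a collagen chain (-0.78), and CGAS, the cytosolic DNA sensor (-0.76). At or below 50 CPM these were -0.55, -0.33 and -0.58.

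Nearest to ENSBTAG00000052658 among the named genes were GRK4, a G protein-coupled receptor kinase (r = 0.85), DZIP1, a protein of cilium assembly (0.85), ZCWPW1, a reader of histone methylation (0.84), AGFG2 (0.82) and GUF1, a mitochondrial GTPase (0.81). They ranked between 20 and 50 among all genes. Over the 24 libraries at or below 15 CPM of ENSBTAG00000052658, again a limit set after the levels were seen, which leaves out subject C's 3 libraries and the 3 high libraries of 3-8 h, r was 0.71, 0.55, 0.57, 0.64 and 0.66 in the same order. Most opposed were GZMB (-0.84), the interleukin 4 receptor IL4R (-0.82) and AUTS2 (-0.82). Without the 6 high libraries r was -0.47 for GZMB, -0.80 for IL4R and -0.44 for AUTS2.

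GZMB was itself uneven between heifers, from 1.04 to 34.0 CPM at 1 h and from 0.455 to 24.1 CPM at 24 h. Of the listed genes matched by the table of all genes, NKTR (r = 0.64) and PHKG2 (0.61) were closest to ENSBTAG00000052658, and CD68 (0.82) and CD244 (0.44) were closest to ENSBTAG00000010606 by Pearson's r over all 30 libraries. By Spearman's rho CD68 (0.50), IL5RA (0.49) and CD4 (0.46) were above CD244 (0.40), and at or below 50 CPM of ENSBTAG00000010606 r was 0.15 for CD244. Over the 24 libraries at or below 15 CPM of ENSBTAG00000052658, its r was 0.70 with NKTR and 0.49 with PHKG2. With FCGR3A, UGP2 and GZMM it was -0.72, -0.66 and -0.63 there, against -0.07, -0.24 and -0.04 over all 30. The CD94 gene had r of -0.14 with ENSBTAG00000010606 and 0.17 with ENSBTAG00000052658. The members themselves had an r of -0.31 with each other over the 30 libraries.

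Whether the gene model of either member overlaps another gene or has near-identical copies was not examined. Fragments were counted without regard to strand, so genes that overlap, lie antisense to each other or are near-identical copies could have exchanged or lost fragments. The RefSeq annotation of the later assembly ARS-UCD2.0 lists 3 cattle genes on chromosome 5 under the name NKG2A or its symbol KLRC1 and 1 gene named PPP1R3B on chromosome 27. None of its entries was paired with the Ensembl identifiers of the counts, so the position of either member is not given.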

How the data were processed

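Per the labels and the study's methods, PWBC RNA was sequenced as stranded mRNA libraries. The authors trimmed reads with cutadapt 2.8, aligned them to ARS-UCD1.2 with HISAT2 2.2.0, discarded duplicates and assigned fragments to Ensembl genes with featureCounts (Subread 2.0.1), and deposited the raw counts without normalization. The supplementary code gave group and subject for 15 columns, and the other 15 were taken as 3-8 h by exclusion, with no subject.

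CPM was computed from total counts. Genes above 1 CPM in 5 libraries were tested; the study's FPKM filter was not applied. edgeR 4.0.16 (quasi-likelihood test, library size scaling, robust, legacy fit) and DESeq2 1.42.0 (Wald test) were used under R 4.3.3. Benjamini-Hochberg adjustment covered 14018 genes in edgeR and, in DESeq2, the genes to which it gave an adjusted p. The blocks were the subjects: deviations from group means correlated at 0.61 between 24 h and 1 h libraries of the same subject (lowest 0.54) and at -0.15 between subjects. The negative value follows largely from centring each gene on its group mean and is not separate evidence. Separate tubes of 1 heifer served as its libraries. No 2 libraries had identical counts. SE and 95% intervals came from DESeq2. The members and gene lists were chosen with earlier results of these data known. Named genes were the members, matched listed genes, and per member the 5 named genes with the highest and the 3 with the lowest r. Names came from supplementary tables. Where the symbol was empty, an NCBI gene number in the description was looked up in the RefSeq annotation, and CD94 was named by its description. The steps were tested on simulated data. Alternatives are given in the closing section.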

Additional observations from a re-analysis of the deposited data

Results flagged for a closer look

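ENSBTAG00000052658 had 1 library far from the other 4 in each of the 3 groups of 5, and each time it was that of subject C. The gap between subject C and the next library, divided by the range of the group, was 0.803 in coccygeal blood at 1 h (21.9 against 5.65 CPM), 0.820 in jugular blood at 1 h (21.6 against 6.17 CPM) and 0.812 at 24 h (33.0 against 8.91 CPM). Dixon's critical value for 5 samples is 0.71, and chance exceeds it in about 1 of 20 groups if the values are normally distributed. Levels entered in CPM without a log, and whether they were normally distributed was not tested, so these flags hold for that scale only. The 3 groups come from the same heifer's blood and are not independent of each other. Of 10 sets of 5 values examined, levels and within-subject differences of both genes, these 3 were flagged. For ENSBTAG00000010606 the largest ratios were 0.644 for the level of subject A at 1 h and 0.674 for the difference of subject A between 24 h and 1 h, both below that value.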

How the results depend on the processing

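TMM scaling, DESeq2, no filter, estimation that was not robust and the newer quasi-likelihood fit changed no direction and no call of either member in the 4 comparisons. TMM scaling, the estimation that was not robust and the newer fit changed edgeR only. The DESeq2 side of the call rule was kept from the main fit in those settings, so they could not alter it. With no replicate block, the log2 fold changes at 24 h against 1 h were -0.85 for ENSBTAG00000010606 and 0.60 for ENSBTAG00000052658, and with 1 fit of all libraries without the block they were also -0.85 and 0.60, with neither gene called. The genes called at 24 h against 1 h, 361 with the subject as a block, numbered 30 with no replicate block, 88 in the fit of all libraries, 1668 by edgeR's FDR alone, and 156 to 396 with 1 heifer left out (156 without subject A, 237 without subject B). At 24 h against 3-8 h, 28 genes were called, 57 by edgeR's FDR alone, 68 by DESeq2, and 15 to 34 with 1 library at 24 h left out (15 without subject A, 17 without subject D). Leaving out 1 heifer or library gave log2 fold changes of 0.40 to 0.62 for ENSBTAG00000052658 at 24 h against 1 h, -0.30 to 0.0255 and -0.27 to -0.09 for ENSBTAG00000010606 and ENSBTAG00000052658 between veins, -0.35 to 0.0143 and -0.017 to 1.12 for ENSBTAG00000010606 and ENSBTAG00000052658 at 3-8 h against 1 h, and -0.54 to 0.64 for ENSBTAG00000052658 at 24 h against 3-8 h. The cause was not tested. By Spearman's rho, 3 of the 5 nearest and 1 of the 3 most opposed named genes of ENSBTAG00000010606 stayed among the 5 and the 3, and 2 of 5 and 1 of 3 for ENSBTAG00000052658. At 29 to 515 counts per library, ENSBTAG00000052658 has a larger relative counting error than ENSBTAG00000010606, at 360 to 1996. The part of counting error in the changes listed above was not tested.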
